A study of Mus musculus with 6 samples.

Results

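The 10 genes described here are markers used to sort and tell apart adipose progenitor cells: Ly6a, Cd34, Dpp4, Pi16, Anxa3, Thy1, Cd24a, Nt5e, Icam1 and Vcam1. They were taken by symbol from a table of read counts for 49671 mouse genes, and all 10 were found and tested. RNA was sequenced from 6 libraries of immortalised mouse preadipocytes that had been differentiated into adipocytes until day 8. The cells came from inguinal fat of 3-month-old C57BL/6 mice homozygous for floxed Tcf7l2, carried the SV40 large T antigen and a retroviral CreERT2, and were sorted before immortalisation as CD34+, Sca1+, CD29+ cells free of CD31, CD45 and Ter-119. Control cells (3 libraries) received ethanol and knockout cells (3 libraries) 4-hydroxytamoxifen, which switches CreERT2 on, for 24 h, 2 days before differentiation.

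Both groups were given dexamethasone, isobutylmethylxanthine and insulin, and a further agent at 5 nM that the labels list under a different code for each library. All knockout libraries had 4-hydroxytamoxifen and all controls had ethanol, so gene deletion and drug cannot be told apart. The labels leave unclear whether the libraries received different agents, and any such effect cannot be told apart from the libraries. The number of mice or clones behind the cells is not stated, and neither is whether the 3 libraries of a group were separate cultures. The p-values therefore measure the spread between these libraries, whether biological or technical.

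Fat tissue holds a layered stroma of progenitors. In mouse subcutaneous fat, cells that carry Dpp4 and Pi16 lie in the fibrous interstitium and give rise to Icam1-positive preadipocytes, which are committed to become adipocytes. Ly6a (Sca-1), Cd34 and Thy1 mark the stroma more broadly, and their proteins decline on the surface as fat cells mature. Tcf7l2, the deleted gene, encodes a DNA-binding partner of beta-catenin in Wnt signalling, a pathway that restrains adipogenesis.

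Libraries held 26621293 to 33484764 counts. Within groups, Pearson correlations of log2(CPM + 1) over tested genes were 0.997 to 0.998, and between groups 0.993 to 0.994. On the second principal component (16.4% of variance) control replicate 3 (-8.54) and knockout replicate 2 (-11.4) stood apart from the other 4 libraries (3.45 to 9.15), so the calls of the 10 genes that change without this pair are given below. Tcf7l2 counts over the whole gene were 259, 173 and 242 in control and 169, 215 and 157 in knockout libraries, a log2 difference of -0.32 (SE 0.14; edgeR adjusted p = 0.125), called in the fit without control replicate 2 (adjusted p = 0.0322). A deleted exon need not lower the count of a whole gene, so this does not check the genotype.

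Transcripts of all 10 progenitor markers were detected at day 8, the only time point, at levels that spanned more than 3 orders of magnitude, and knockout cells differed from control cells in 5 of the 10. Nt5e, the gene of the ectoenzyme CD73, fell 1.72-fold. Vcam1 and Thy1 fell 1.13-fold and 1.10-fold, Cd24a rose 1.44-fold and Icam1 rose 1.18-fold. A gene is termed called where the Benjamini-Hochberg adjusted p of edgeR's quasi-likelihood test, over all 14946 tested genes, was under 0.05. In all, 22.4% of tested genes were called, 11.9% as higher and 10.5% as lower in knockout cells. The calls among the 10 genes went both ways, with 2 higher and 3 lower. Their median log2 fold change was -0.052, against -0.0017 over all tested genes. Only Nt5e was called in each of the 14 alternative fits, and the number of the 10 that were called was 1 without knockout replicate 3 (where 14.3% of all tested genes were called), 2 without control replicate 1 (14.2%), 3 without control replicate 2 (15.8%) and 3 without control replicate 3 (20.4%).

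**Figure D1:**
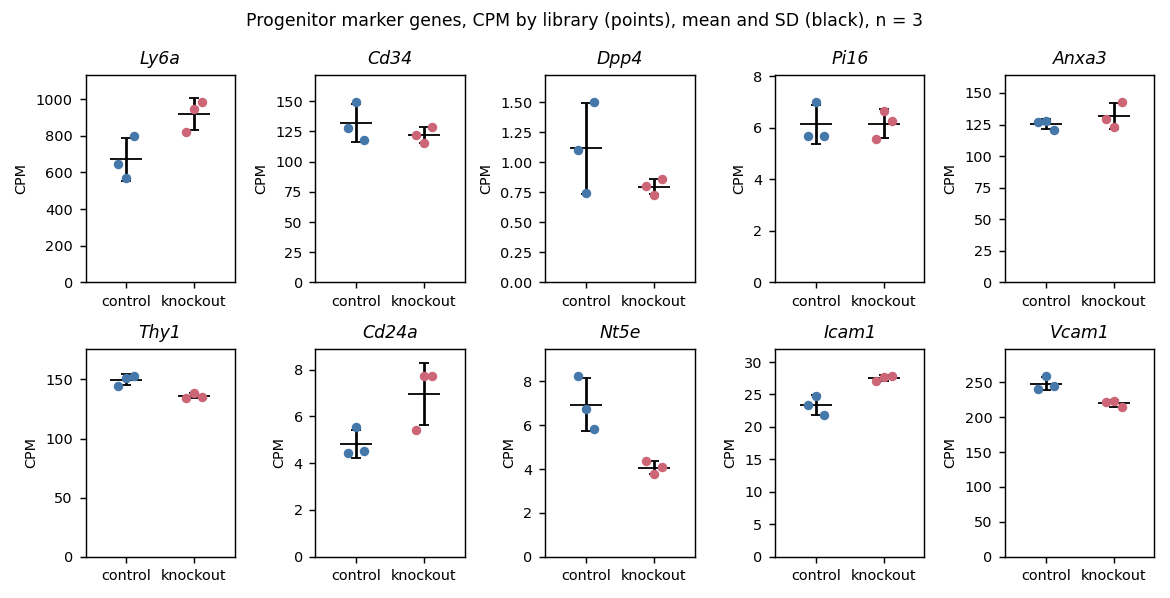
Each panel plots 1 gene, with its CPM (counts relative to scaled library size) on a linear axis from 0 in the 3 control and 3 knockout libraries (points) and the group mean and SD (black). The groups do not overlap for Ly6a, Thy1, Nt5e, Icam1 and Vcam1.

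The groups' CPM ranges did not overlap for 5 of the 10 genes, Ly6a, Thy1, Nt5e, Icam1 and Vcam1. The same held for 37.9% of all tested genes. Cd24a was called although its lowest knockout library lay below its highest control library, and Ly6a was separated without being called.

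To compare genes with each other, levels were divided by exonic length (CPM per kb of merged exons). Ly6a, which encodes the GPI-anchored antigen Sca-1, was by far the most abundant, at 557 ± 95.7 CPM per kb in control cells (SD, n = 3), above 99.8% of tested genes. It was followed by Thy1 at 50 ± 1.56, Anxa3 at 34.4 ± 1.03, Vcam1 at 28 ± 1.09 and Cd34 at 18.1 ± 2.21 CPM per kb (SD, n = 3 each). Icam1 stood near the middle of all tested genes, at 5.36 ± 0.338 CPM per kb. Below it lay Cd24a (1.87 ± 0.235), Pi16 (0.963 ± 0.12), Nt5e (0.807 ± 0.142) and Dpp4 (0.177 ± 0.0604 CPM per kb).

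Among neighbours in this order, the control ranges of Pi16 (0.894 to 1.10 CPM per kb) and Nt5e (0.679 to 0.959 CPM per kb) overlapped, and those of the other neighbours did not. In knockout cells Nt5e (0.437 to 0.505 CPM per kb) lay below Pi16 (0.872 to 1.05 CPM per kb) in every library. Merged exons include those of unused transcript forms, so levels of long genes may be understated.

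**Figure D2:**
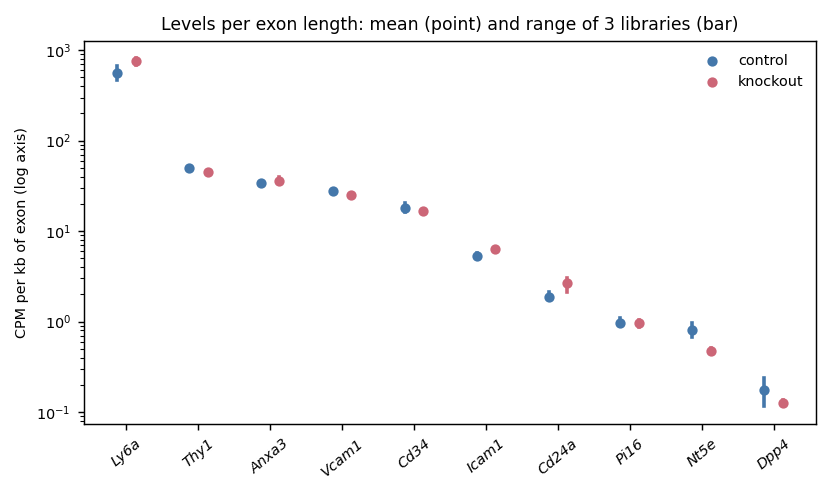
The 10 genes are ordered by their mean control level in CPM per kb of exon (log axis), in control (blue) and knockout (red) cells, with points for means and bars for the range of 3 libraries. Ly6a stands above the other 9 in both groups and Dpp4 below them.

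Of the 3 antigens on which the parent cells were sorted, Sca1 (Ly6a) and CD34 are among the 10 markers, and neither gene was called. Ly6a (ENSMUSG00000075602, GRCm38 chr15:74994877-74998031, minus strand) was at 643, 572 and 797 CPM in control and 821, 948 and 986 CPM in knockout libraries. Every knockout library was above every control library, although control replicate 3 and knockout replicate 1 lay close together. The log2 fold change was 0.45 (SE 0.13, 95% interval 0.14 to 0.77, not adjusted for multiple tests), with an edgeR adjusted p of 0.0539, just short of the threshold.

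The call of Ly6a changed in 7 of the 14 alternatives. It was called higher by DESeq2 (adjusted p = 0.029), by limma-voom (0.00717), with upper-quartile scaling (0.0492) and among genes with a CPM of at least 1 in 3 samples (0.0387). Without control replicate 3 its log2 fold change was 0.59 (edgeR adjusted p = 0.000834), and without that library and knockout replicate 2 it was 0.57 (adjusted p = 0.0177). Without knockout replicate 1 the adjusted p was 0.0453, and without knockout replicate 2 it was 0.237, the highest of its alternatives.

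Ly6a shares sequence with its neighbours in the Ly6 cluster, so part of its reads may have been assigned elsewhere or dropped. Of the distinct 50-base words in its GENCODE M21 transcripts, 19% also occur in transcripts of other genes, mainly Ly6c1 and Ly6i. The longest runs shared with the coding sequences of these 2 relatives are shown. Only a read short enough to lie wholly inside a run could not be assigned to 1 gene by that run. The run shared with Ly6c1 is shorter than 50 bases, so it holds none of the 50-base words counted above. Ly6c1 shares 15% of the Ly6a words, and the run printed does not show where those words lie. Positions count from the first base of the 402-base Ly6a coding sequence, stop codon left out, and the runs read from positions 337 to 384 (48 bases, shared with Ly6c1) and from 50 to 129 (80 bases, shared with Ly6i), all in lower case since no base in them differs.
Ly6c1: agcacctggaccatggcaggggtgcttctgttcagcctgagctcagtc
Ly6i: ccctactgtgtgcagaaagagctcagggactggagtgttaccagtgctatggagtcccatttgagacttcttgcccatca

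Ly6c1 was itself called higher, at 80, 68.5 and 93.9 CPM in control and 113, 133 and 148 CPM in knockout libraries, a 1.63-fold difference (SE of the log2 value 0.14; edgeR adjusted p = 0.0171). Within both groups it took the same order of libraries as Ly6a, lowest in control replicate 2 and knockout replicate 1. The call was lost without knockout replicate 2 (adjusted p = 0.115) and without it and control replicate 3 (0.111). Ly6i was near the floor at 0.426 ± 0.184 and 0.375 ± 0.0255 CPM (SD, n = 3). The run shown for Ly6c1 is also part of a longer run shared with Ly6c2 (52 bases, positions 333 to 384). Ly6c2 had only 1 to 4 counts per library. How much of the Ly6a signal came from shared stretches was not tested.

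Cd34 (ENSMUSG00000016494, chr1:194938819-194961279, plus strand) encodes a sialomucin of stem and endothelial cells. It was at 128, 150 and 118 CPM in control and 122, 115 and 129 CPM in knockout libraries, and the groups overlapped. The log2 fold change was -0.11 (95% interval -0.29 to 0.064; edgeR adjusted p = 0.362). CD29, the third antigen of the sort, is the integrin subunit encoded by Itgb1, with 1111 ± 31.8 CPM in control against 1031 ± 33.8 CPM in knockout cells, a difference short of the threshold (adjusted p = 0.127).

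The interstitial progenitor markers Dpp4, Pi16 and Anxa3 were not called. Dpp4 (ENSMUSG00000035000, chr2:62330073-62412231, minus strand), the dipeptidyl peptidase CD26, had only 37, 21 and 40 counts in control and 24, 23 and 23 counts in knockout libraries. Knockout counts lay within the control range, but in CPM knockout replicate 2 (0.733) lay just below the lowest control library (0.744). The log2 fold change of -0.48 had a 95% interval of -1.04 to 0.085 (edgeR adjusted p = 0.22). The counts are too few to tell a fall from no change.

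Pi16 (ENSMUSG00000024011, chr17:29317680-29330593, plus strand), a membrane-anchored protein of the CAP family, was at 5.69, 7.01 and 5.69 CPM in control and 5.55, 6.66 and 6.27 CPM in knockout libraries. The groups overlapped, with a log2 fold change of 0.0096 and a 95% interval of -0.25 to 0.27 (edgeR adjusted p = 0.965). Anxa3 (ENSMUSG00000029484, chr5:96793339-96845966, plus strand), an annexin that binds phospholipids in the presence of calcium, was at 127, 128 and 121 CPM in control and 129, 123 and 143 CPM in knockout libraries. Its log2 fold change was 0.071 with a 95% interval of -0.053 to 0.19 (edgeR adjusted p = 0.423). Of its knockout libraries, 1 lay within the control range and 2 lay above it.

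**Figure D3:**
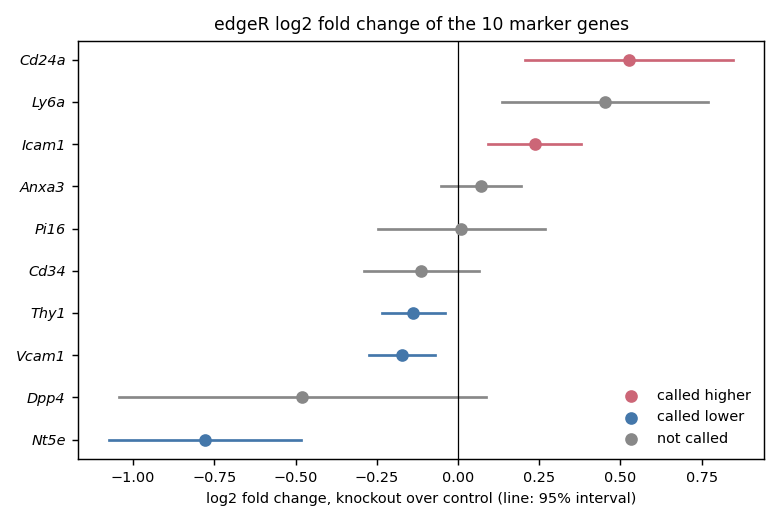
Points give edgeR's log2 fold change of knockout over control for the 10 genes and lines the 95% interval, not adjusted for multiple tests. Nt5e lies farthest below 0 (-0.78) and Cd24a farthest above (0.53); the wide interval of Dpp4 goes with its low counts.

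Icam1, a marker of committed preadipocytes, rose and Vcam1 fell, both by small steps. Icam1 (ENSMUSG00000037405, chr9:21015985-21028817, plus strand), the ligand of the leukocyte integrin LFA-1, was at 23.4, 24.8 and 21.9 CPM in control and 27.1, 27.7 and 27.9 CPM in knockout libraries. The 3 knockout libraries lay within 1 CPM of each other and above all controls. On the log2 scale the difference came to 0.24 (SE 0.066), with an edgeR adjusted p of 0.02. The call rested on several libraries: leaving out control replicate 1 gave an adjusted p of 0.0752, control replicate 3 gave 0.0786 and knockout replicate 3 gave 0.0795. An antisense gene, Gm47079, covers 11.7% of Icam1's exonic bases but had only 3 to 8 counts per library.

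Vcam1 (ENSMUSG00000027962, chr3:116109949-116129688, minus strand) binds the integrin VLA-4. It was at 241, 259 and 245 CPM in control and 222, 223 and 214 CPM in knockout libraries, all knockout libraries below all controls. This is a log2 difference of -0.17 with an SE of 0.047 (edgeR adjusted p = 0.0171). Leaving out control replicate 2 raised the adjusted p to 0.078, and leaving out knockout replicate 3 raised it to 0.0978. The difference between the Icam1 and Vcam1 responses was not tested.

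Dpp4 and Icam1 define the interstitial and the committed population, and the 250 bases before their RefSeq transcription starts are shown because a DNA-binding factor was deleted. Both are from RefSeq's GRCm38.p6 sequence: chr2:62412232-62412481 on the minus strand for Dpp4 and chr9:21015690-21015939 on the plus strand for Icam1, read 5′ to 3′ along the gene's strand. Capitals would mark TCF/LEF letters (CTTTGAT or CTTTGAA or CTTTGTT or CTTTGTA) or NF-kB letters (GGGNNTTCC) on either strand, and neither window holds one. Only these exact letters were searched, so a site of either kind with other letters would stay unmarked. The NF-kB letters hold GGG and TTCC at a fixed spacing, so NF-kB sites with a longer spacing would also stay unmarked. Neither window can therefore be said to lack NF-kB sites.
Dpp4: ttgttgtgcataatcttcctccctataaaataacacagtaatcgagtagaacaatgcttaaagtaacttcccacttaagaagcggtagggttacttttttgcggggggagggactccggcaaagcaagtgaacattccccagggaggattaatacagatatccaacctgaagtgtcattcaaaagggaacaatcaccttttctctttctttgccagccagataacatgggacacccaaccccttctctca
Icam1: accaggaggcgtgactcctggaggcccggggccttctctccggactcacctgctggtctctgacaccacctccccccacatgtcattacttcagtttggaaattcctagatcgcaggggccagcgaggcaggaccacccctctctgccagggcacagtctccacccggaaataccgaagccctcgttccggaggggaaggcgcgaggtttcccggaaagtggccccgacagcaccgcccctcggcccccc

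Over 32851 RefSeq windows of the same length, 14.8% held a match to these TCF/LEF letters and 4.98% to these NF-kB letters. These shares count the exact letters and are not rates of binding sites. Windows were at hand for 5 of the 10 genes. Besides Dpp4 and Icam1, that of Cd34 held no match. That of Pi16 held 1 TCF/LEF match (CTTTGTT, at position -30 from the start), and that of Nt5e held no match. The windows of Nt5e and Pi16 lie wholly within GENCODE exons, so they are not upstream sequence for every annotated transcript and are not printed. The absence of these letters from 250 bases says nothing about sites with other letters or spacing, or about binding elsewhere.

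The largest change among the 10 was the fall of Nt5e. Its product, CD73, is a GPI-anchored enzyme that turns extracellular AMP into adenosine and is a standard marker of mesenchymal stromal cells. Nt5e (ENSMUSG00000032420, chr9:88327197-88372092, plus strand) had 277, 190 and 155 counts in control and 130, 118 and 110 counts in knockout libraries, or 8.25, 6.73 and 5.84 against 4.35, 3.76 and 4.11 CPM. The highest knockout library lay well below the lowest control library, although the controls differed among themselves. Its log2 fold change of -0.78 (SE 0.14, 95% interval -1.07 to -0.48; edgeR adjusted p = 0.000977) was larger in size than that of 96.4% of tested genes. Across the alternatives it ran from -0.89 to -0.63, with an adjusted p of at most 0.00902.

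Thy1 (ENSMUSG00000032011, chr9:44043384-44048579, plus strand), the GPI-anchored antigen CD90, was at 144, 152 and 153 CPM in control and 134, 138 and 136 CPM in knockout libraries. Groups were separated by a narrow gap. The difference of -0.14 on the log2 scale (SE 0.045) had an edgeR adjusted p of 0.045 and is about the median size of change over all tested genes (0.14, without regard to sign). The call was lost by DESeq2 (adjusted p = 0.0816), with upper-quartile scaling (0.0523), under both other filters (0.107 with none and 0.0565 with a CPM of at least 1 in 3 samples) and without any 1 library other than knockout replicate 2 (0.0598 to 0.141).

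Cd24a (ENSMUSG00000047139, chr10:43578284-43584265, plus strand) encodes a small GPI-anchored sialoglycoprotein that marks an early adipocyte progenitor in mice. It was at 4.44, 5.53 and 4.52 CPM in control and 5.42, 7.71 and 7.73 CPM in knockout libraries, with knockout replicate 1 below control replicate 2. Its difference of 0.53 on the log2 scale had an SE of 0.15 and an edgeR adjusted p of 0.0215. Leaving out 1 library ended the call in 4 cases: the adjusted p was 0.117 for control replicate 1, 0.0719 for control replicate 3, 0.0551 for knockout replicate 2 and 0.0989 for knockout replicate 3. With the pair of libraries that stood apart left out it was 0.108.

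**Figure D4:**
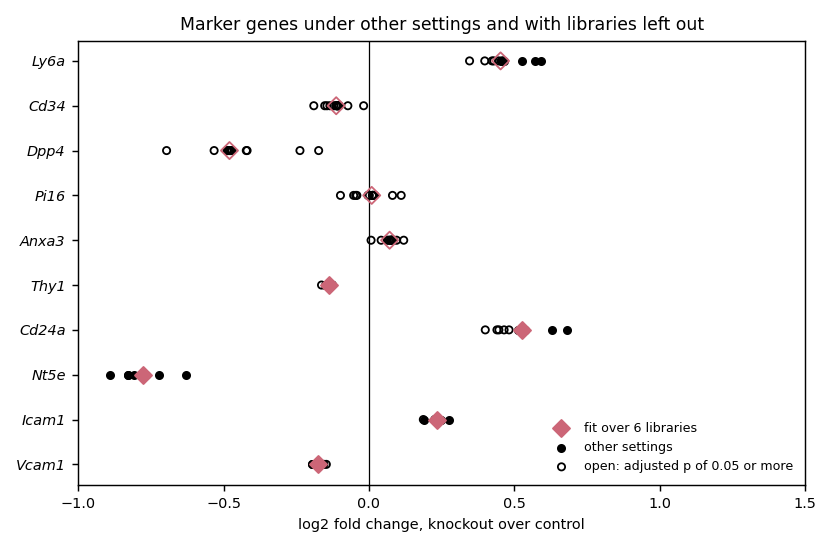
For each gene the diamond is the log2 fold change of knockout over control from all 6 libraries, and circles are the other scalings, filters, tools and fits with libraries left out. Open symbols have an adjusted p of 0.05 or more; the circles of Nt5e are all filled, and those of Ly6a are mixed.

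Genes around the 10 markers were described from lists chosen for this purpose, read beside the 22.4% of all genes that were called. Of 16 tested further genes of Dpp4-positive interstitial progenitors, 4 rose and 2 fell, with a median log2 fold change of 0.10. Pcolce2, an enhancer of procollagen processing, rose from 11.1 ± 0.564 to 22.4 ± 1.1 CPM (SD, n = 3), 2.01-fold. The sphingomyelinase gene Smpd3 rose 1.46-fold and the semaphorin gene Sema3c 1.30-fold, while the scavenging chemokine receptor gene Ackr3 fell 1.76-fold and Tmem100 fell 1.67-fold. Smpd3 lost its call when control replicate 1 was left out (edgeR adjusted p = 0.0599). Without the pair of libraries that stood apart, 8 of the 16 were called, in a fit that called 26.4% of all tested genes.

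Of 15 further genes of Icam1-positive committed preadipocytes, 4 rose and 5 fell (median log2 fold change -0.10). The largest rises were in genes that mature adipocytes also use: the fatty acid transporter gene Cd36 rose 1.70-fold, the lipid chaperone gene Fabp4 1.56-fold and Apoe 1.52-fold. The falls included the basement membrane collagen genes Col4a2 (1.40-fold) and Col4a1 (1.32-fold) and the gamma-glutamyltransferase gene Ggt5 (1.41-fold). Fabp4 also stands in the adipocyte list below. Without the pair that stood apart, 10 of the 15 were called, beside 26.4% of all tested genes.

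Of 11 genes of CD142-positive stromal cells, which have been described as inhibitors of adipogenesis, 2 rose and 2 fell (median 0.079). The cholesterol exporter gene Abcg1 rose 1.82-fold and Clec11a 1.32-fold, while Gdf10 fell 1.22-fold and Cygb 1.17-fold. F3, which encodes CD142 itself, stood at 422 ± 39.5 CPM in control against 472 ± 12.2 CPM in knockout cells, short of the threshold (edgeR adjusted p = 0.0759). Gdf10 lost its call when control replicate 1 (0.0607) or knockout replicate 3 (0.0737) was left out, and Cygb when any library but knockout replicate 2 was (0.0623 to 0.16). In both fits in which Gdf10 lost its call, 2 of the 11 were called, beside 14.2% and 14.3% of all tested genes. Without the pair that stood apart, 5 of the 11 were called, beside 26.4% of all tested genes. Cygb also missed the threshold under the filter on a CPM of 1 (0.0511).

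Among 16 other tested stromal surface genes, 3 rose and 4 fell (median -0.079). The neurotrophin receptor gene Ngfr fell from 356 ± 16.7 to 177 ± 6.41 CPM (SD, n = 3), 2.02-fold, Cd276 1.31-fold and the cadherin gene Cdh11 1.14-fold. The adhesion genes Alcam (CD166), Itga6 and Mcam (CD146) rose 1.68-fold, 1.55-fold and 1.47-fold. Leaving out control replicate 1 or knockout replicate 3 ended the call of Cdh11 (edgeR adjusted p = 0.0715 and 0.0676). Without both control replicate 3 and knockout replicate 2, 11 of these genes were called, in a fit that called 26.4% of all tested genes.

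Around Nt5e, 12 tested genes of extracellular nucleotide handling and adenosine signalling gave 4 rises and 2 falls (median 0.064). Entpd1 (CD39), which makes the AMP that CD73 uses, fell 2.46-fold. Its counts were 110, 73 and 73 in control and 36, 38 and 29 in knockout libraries, a wide separation at a low level (log2 difference -1.30, SE 0.17; edgeR adjusted p = 8.91e-05). The adenosine transporter gene Slc29a1 fell 1.27-fold. Among the rises, the alkaline phosphatase gene Alpl, whose product can also release adenosine from AMP, rose 2.29-fold, the adenosine A1 receptor gene Adora1 1.93-fold, from 9.25 ± 1.82 to 17.8 ± 0.337 CPM (SD, n = 3), and the nucleotide pyrophosphatase gene Enpp1 1.35-fold.

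Around Icam1 and Vcam1, 18 tested genes of integrin partners, membrane linkers and NF-kB signalling gave 3 rises and 2 falls (median 0.058). Sod2 rose 1.40-fold, the NF-kB inhibitor gene Tnfaip3 1.26-fold and the chemokine gene Cxcl1 1.56-fold, from 1.35 ± 0.324 to 2.09 ± 0.381 CPM. The linker gene Ezr fell 1.24-fold and the integrin gene Itgb2 1.68-fold. Leaving out control replicate 1, control replicate 2 or knockout replicate 3 ended the call of Tnfaip3 (edgeR adjusted p = 0.0699, 0.0761 and 0.085). Cxcl1 missed the threshold in DESeq2 (0.0845) and limma-voom (0.0566), and in edgeR when control replicate 1 (0.206), control replicate 2 (0.0964), knockout replicate 1 (0.107) or knockout replicate 3 (0.155) was left out. In each of the 3 fits in which Tnfaip3 lost its call, 3 of the 18 genes were called. These fits called 14.2%, 15.8% and 14.3% of all tested genes.

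Of 26 tested family relatives of the 10 markers, 3 rose and 6 fell (median -0.062). Besides Ly6c1, the annexin gene Anxa8 rose 1.39-fold and Podxl2, a sialomucin related to CD34, rose 1.21-fold. The Ly6 gene Ly6d fell 2.08-fold at a low level (2.34 ± 0.401 to 1.12 ± 0.107 CPM), the Dpp4 relative Fap 1.54-fold and the CAP family gene Glipr1 1.43-fold. Anxa8 lost its call when control replicate 1 (edgeR adjusted p = 0.103) or any 1 knockout library (0.0521 to 0.0741) was left out. Podxl2 missed the threshold in DESeq2 (0.0717), with any 1 library left out (0.0607 to 0.107) and with the pair that stood apart left out (0.11). Glipr1 lost its call by DESeq2 (0.0695) and limma-voom (0.0515), with upper-quartile scaling (0.0514), with a CPM of at least 1 in 3 samples (0.0564) and when control replicate 1 (0.194), control replicate 2 (0.124), knockout replicate 1 (0.158) or knockout replicate 3 (0.055) was left out. Without control replicate 1, 5 of the 26 were called, beside 14.2% of all tested genes.

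**Figure D5:**
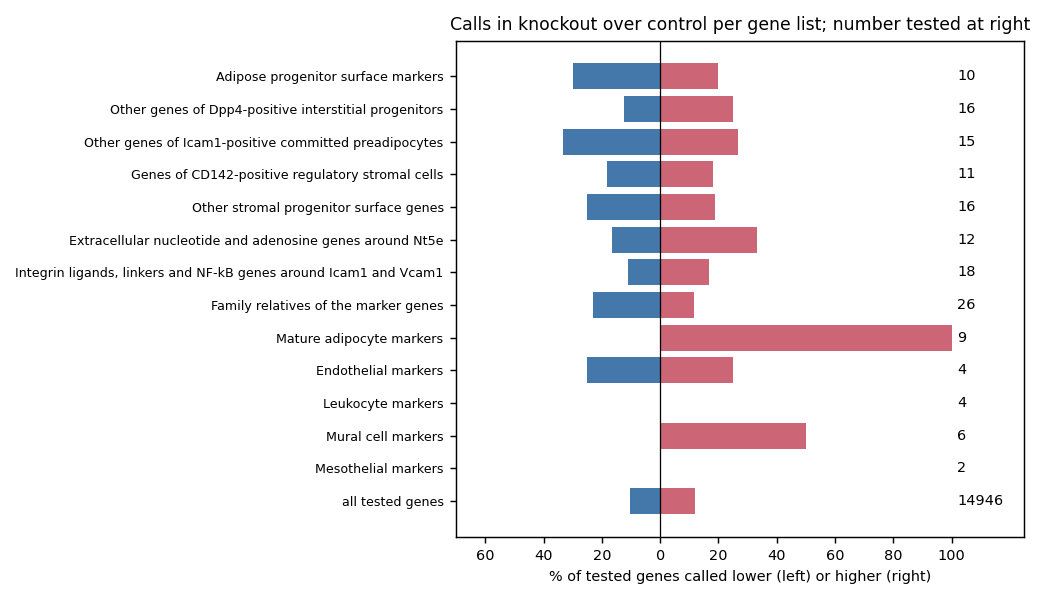
Bars give the share of tested genes of each list called lower (left, blue) or higher (right, red) in knockout cells, with the number tested at the right and all tested genes in the lowest row. The 10 marker genes point both ways, while the bar of the mature adipocyte markers reaches 100% on the higher side.

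Markers of mature adipocytes moved with the group. All 9 listed genes were called higher, beside 11.9% of all tested genes. The list was chosen with earlier results of these data known. Lep rose 3.81-fold, Pck1 2.17-fold and Pnpla2 1.95-fold. The summed level of the 9 genes was 5938 to 6145 CPM in control and 8702 to 10448 CPM in knockout libraries. In whole cultures, fewer progenitor cells and less transcript per cell cannot be told apart. Whether the share of mature adipocytes had a part in the changes of Nt5e, Thy1, Vcam1, Cd24a or Icam1 was not tested.

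Pecam1 (CD31) and Ptprc (CD45), 2 of the antigens that the sort selected against, were near 0, with 2 to 6 and 0 to 2 counts per library. Of the 8 leukocyte markers, Adgre1 and Cd3e were among those with no count in any library, and Csf1r (2.85 ± 0.514 and 2.75 ± 0.287 CPM) and Cd14 (2.36 ± 0.31 and 2.55 ± 0.118 CPM) were the most abundant; their summed level was 6.48 to 7.80 CPM in control and 7.12 to 8.25 CPM in knockout libraries. In edgeR, 0 of 4 tested leukocyte markers were called, 0 had an unadjusted p under 0.05, and DESeq2 and limma-voom called 0. Erythroid markers summed to at most 0.0747 CPM, Hba-a1 and Hbb-bs were at 0, and none of the 4 was tested.

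Endothelial markers other than Pecam1 were partly present: 4 of the 8 were tested, of which Kdr rose 1.30-fold, from 13.6 ± 1.02 to 17.6 ± 0.756 CPM, and Egfl7 fell 1.43-fold, from 8.15 ± 0.221 to 5.72 ± 0.18 CPM (SD, n = 3). Cldn5 had no count, and the 8 summed to 31.8 to 34 CPM in control and 32.8 to 34.1 CPM in knockout libraries. Of 6 tested mural cell markers 3 rose, Des 1.89-fold, Rgs5 1.61-fold and Notch3 1.45-fold, and the 7 listed summed to 496 to 515 CPM in control and 544 to 582 CPM in knockout libraries, most of it Acta2. Rgs5 missed the threshold in DESeq2 (adjusted p = 0.0686), and in edgeR when control replicate 1 (0.0822), control replicate 2 (0.0817) or knockout replicate 1 (0.103) was left out. Of 5 mesothelial markers 2 were tested, Krt19 (19.1 ± 0.646 and 20.4 ± 1.83 CPM) and Lrrn4 (0.326 ± 0.163 and 0.646 ± 0.0195 CPM), and edgeR called 0. Of these, 1 had an unadjusted p under 0.05, DESeq2, which gave Lrrn4 no adjusted p, called 0, and limma-voom called Lrrn4 (adjusted p = 0.0467), as did edgeR without control replicate 1 (0.0246). The 5 summed to 18.9 to 20.3 CPM in control and 19.7 to 23.2 CPM in knockout libraries. The part of these cell types in the changes of the 10 genes was not tested.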

How the data were processed

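Total RNA depleted of ribosomal RNA was made into strand-specific libraries, per the labels' protocols. The deposited table holds raw read counts per Ensembl gene, not normalised, in 6 columns matched to samples by library number. Build GRCm38 and the tools featureCounts 1.5.1, STAR 2.5.2b and DESeq2 1.16.0 are listed, without roles, per the submitters' processing notes. Not given in the sources used here are the annotation release, the strand setting and the handling of reads with several matches.

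Symbols (49326 of 49671 genes) and coordinates are from GENCODE M21, promoter windows from RefSeq's GRCm38.p6. The members, lists and alternatives were chosen with earlier results of these data known. After filterByExpr, which kept 14946 genes, the robust quasi-likelihood F-test of edgeR 4.0.16 (R 4.3.3) was applied to the counts with TMM scaling and group as the only term, and was tested on simulated data. CPM is the count scaled by TMM-adjusted library size. A fold is 2 to the absolute log2 fold change. SE is the log2 fold change over the square root of F. Intervals are 95%.

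Named genes are the 10 members, Tcf7l2 and, per list, up to 3 called genes per direction with the largest change and an average log2 CPM of at least 0, or else the 2 most abundant. Markers of other cell types at or near 0 were also named. Itgb1, F3, Ly6i, Ly6c2 and Acta2 fall outside this rule and were chosen after their values were seen. Alternatives were 3 scalings (DESeq2 size factors, upper quartile, total counts), 2 filters (none, or 3 samples at a CPM of 1 or more), limma-voom (limma 3.58.1), the Wald test of DESeq2 1.42.0, an adjusted p under 0.01 and leaving out each library. The fit that drops both control replicate 3 and knockout replicate 2 was chosen after seeing the data. Library totals limit the precision of low genes such as Dpp4.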

Additional observations from a re-analysis of the deposited data

How the results depend on the processing

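Nt5e stayed called in all 14 alternative fits, and no called gene of the 14946 changed sign in any of them. Of the 10 members, 5 were called; with 1 library left out the number ran from 1 to 5, and at an adjusted p under 0.01 it was 1 (Nt5e). Over all genes, 3346 were called, 1934 at an adjusted p under 0.01, and 2145 to 3475 with 1 library left out. The members' median log2 fold change, -0.052, had no stable sign: it was 0.0195 with a CPM of at least 1 in 3 samples, where Dpp4 was not tested, from -0.0899 to 0.031 with 1 library left out, and -0.12 without control replicate 3 and knockout replicate 2. The log2 fold change of Pi16, not called in any fit, changed sign in 5 of 14 alternatives. No paired analysis was possible because libraries carry running numbers across both groups and nothing in the labels ties a control to a knockout library. Depth limits what can be said of Dpp4 (21 to 40 counts per library).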
